A study of Ovis aries with 15 samples.

Results

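CYP24 (CYP24A1 in current human nomenclature) encodes the mitochondrial 24-hydroxylase that inactivates vitamin D. The array annotation gave this name to 1 of 15008 probes, A_70_P024321, and that probe was followed across 15 arrays of fetal sheep kidney cortex. CYP24 was singled out because its signal differed between hypoxic and normoxic vehicle fetuses in an earlier reading of the same arrays, so that difference is a description and was not tested. The probes were also searched for VDR, the vitamin D receptor, and for CYP27B1, the 1-alpha-hydroxylase that makes the active hormone. There were 0 probes named VDR and 0 named CYP27B1. A gene name was attached to 1656 probes (11%), and the levels of these 2 genes were not analysed here.

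The 15 arrays held cortex RNA of 15 fetuses, 1 array each, all with catheters in place and at about 125 d of gestation. The groups were hypoxia with ketamine (4 fetuses), hypoxia with saline vehicle (4), normoxia with ketamine (4) and normoxia with saline vehicle (3). Hypoxia, imposed through the mother's ventilation, or normoxia lasted 30 min, ketamine (3 mg/kg, a blocker of NMDA-type glutamate receptors) or saline was given 10 min earlier, and cortex was taken 24 h after the exposure began. Every fetus, normoxic controls included, had been catheterised, and no genotype differed between groups by the labels. Replicate numbers below are those of the scanner files. In the table of values that the authors deposited, 12 of 15 columns correlated best with the scanner array of another fetus and 3 with their own, and in all 15 the best match lay in the same group. Group membership therefore does not differ between the 2 sources, whereas which fetus a replicate number stands for does.

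Vitamin D is activated in 2 steps, in the liver to 25-hydroxyvitamin D and chiefly in the kidney proximal tubule to calcitriol. Calcitriol binds VDR, which pairs with a retinoid X receptor on target genes. CYP24 is a classic target of this receptor: it hydroxylates calcitriol and 25-hydroxyvitamin D at the side chain and so closes the loop, and in the kidney parathyroid hormone lowers it and FGF23 raises it.

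The CYP24 probe is 60 bases long and is shown because every CYP24 value below rests on it. It was designed on a partial ovine 24-hydroxylase coding sequence, per the array annotation, which gives it no genome position.

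CYP24 probe A_70_P024321: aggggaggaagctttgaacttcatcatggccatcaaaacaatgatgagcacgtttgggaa

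Its longest run of bases in common with any of the 15007 other probes was 13, on either strand. Its GC content was 45%, against a median of 43.33% over all probes.

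CYP24 was dim in normoxic cortex and reached much higher signals in some hypoxic fetuses. The scanner's processed signal is the spot brightness after background subtraction, in arbitrary linear units. In the hypoxia ketamine group CYP24 read 103, 222, 31.4 and 19.9 in replicates 1 to 4, and the last of these was not well above background by the scanner software's own call. In the hypoxia vehicle group it read 759, 32.3, 41.1 and 214, all well above background. The normoxia ketamine fetuses gave 30.5, 8.26, 18.3 and 5.73, of which the readings of replicates 2 and 4 were not well above background. The normoxia vehicle fetuses gave 9.43, 7.84 and 18.2, and replicates 1 and 2 were not well above background. CYP24 was thus well above background on 10 of 15 arrays, and no CYP24 spot was saturated.

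**Figure D1:**
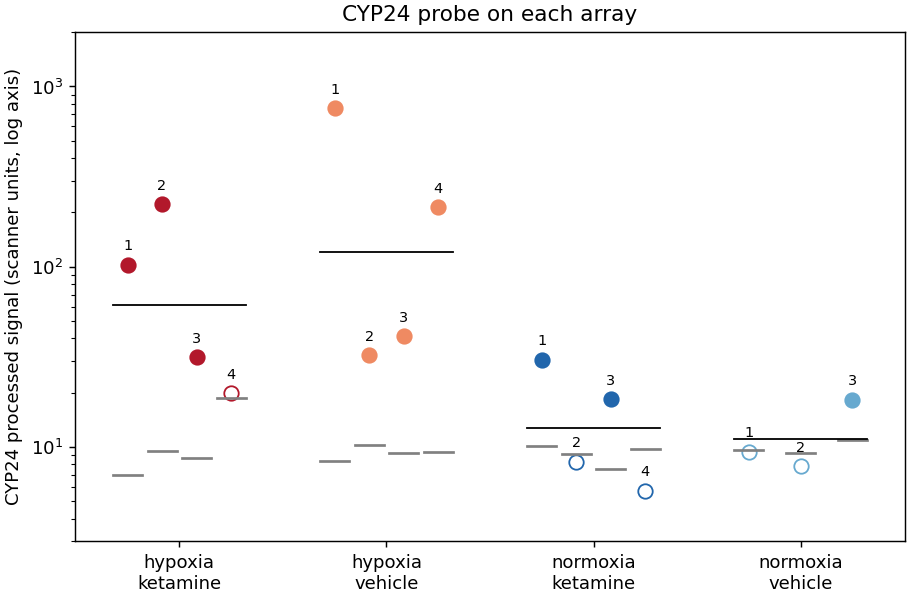
Processed signal of the CYP24 probe on each array (log axis, scanner units), by group. Each point is 1 fetus with its replicate number, open points were not well above background, short grey lines are the lowest signal called well above background on that array, and black bars are means of the log values. Hypoxia vehicle replicate 1 stands at 759 and 4 of the 7 normoxic points are open.

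The 4 hypoxia vehicle readings all lay above the 3 normoxia vehicle readings. The highest was 23.5 times the lowest within the hypoxia vehicle group, 11.2 times within hypoxia ketamine, 5.32 times within normoxia ketamine and 2.33 times within normoxia vehicle. On its own array the CYP24 probe stood at the 69.7th percentile of all probes in hypoxia vehicle replicate 1 and at the 13.6th in normoxia vehicle replicate 2. The 3 arrays with the highest scaled CYP24 signal were hypoxia vehicle replicates 1 and 4 and hypoxia ketamine replicate 2.

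For comparison between arrays, log2 signals were taken relative to the 75th percentile of the array. On this scale CYP24 averaged -4.38 ± 1.499 in hypoxia ketamine fetuses, -3.26 ± 2.15 in hypoxia vehicle fetuses, -6.57 ± 1.08 in normoxia ketamine fetuses and -6.86 ± 0.76 in normoxia vehicle fetuses (SD, n = 4, 4, 4 and 3). By mean the hypoxia vehicle group was highest, followed by hypoxia ketamine. The 2 normoxic groups have no settled order, since 4 of their 7 readings were not well above background and the sign of their difference turned between settings. The ranges of the hypoxia ketamine and hypoxia vehicle groups overlapped, as did those of the normoxia ketamine and normoxia vehicle groups. The residual SD of CYP24 over the 4 groups was 1.51. In RNA from whole cortex, fewer cells of a type and less RNA per cell cannot be told apart.

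The test that the choice of the gene allowed was hypoxia against normoxia in the ketamine fetuses, which share no array with the vehicle comparison. Earlier results of these data were known when the gene and this test were chosen, so the test is not fully independent of that choice. CYP24 was 4.56-fold higher in hypoxia ketamine than in normoxia ketamine fetuses (log2 difference 2.19 ± 0.97, SE, 95% interval of the fold 1.07 to 19.5). A hypoxic fetus read higher than a normoxic one in 15 of 16 pairs, the exception being hypoxia ketamine replicate 4 against normoxia ketamine replicate 1 on the scaled signal. In limma CYP24 passed the threshold that the study states, p up to 0.05 without adjustment (0.0419), and its Benjamini-Hochberg adjusted p = 0.555 over 12925 probes. This SE and p come from the fit of all groups, so they also draw on the spread of the vehicle arrays that chose the gene. In a limma fit of the 8 ketamine arrays alone the SE was 0.79 and the unadjusted p = 0.0229. The exact two-sided permutation test over the 70 splits of the 8 ketamine arrays gave p = 0.0571, where the smallest possible p is 0.0286. Higher calls at the unadjusted threshold were made for 3.68% of all probes in this comparison, and 0.364% of probes had a fitted increase at least that of CYP24. After adjustment 0 of 12925 probes passed in limma, and 1118 passed without it.

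The unadjusted call was lost in several other settings, while the difference kept its sign. Its log2 size was 1.13 with normexp background correction, 1.09 in the value table the authors deposited and 1.96 with dim spots raised to the lowest signal well above background. The call was also lost without any 1 of hypoxia ketamine replicates 1 (1.94) and 2 (1.61), normoxia ketamine replicates 2 (2.03) and 4 (1.77), and normoxia vehicle replicate 1 (2.19). The arrays lay on 2 slides, each with arrays of every group. Within slide 1 the log2 difference was 1.97 and within slide 2 it was 2.41, neither past the threshold, and with slide as a block it was 2.19 and passed.

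Placental lactogen (CSH1), a hormone of the placenta, was well above background in hypoxia ketamine replicate 2 (19.3) and in normoxia ketamine replicates 1 (169) and 2 (110.1), and on no other array. Of the other placental genes measured, PAG3 and PAG9 were well above background on the same 3 arrays and PAG4 on the 2 normoxia ketamine ones. PAG6 and PAG11 were well above background on most arrays and highest on these 3, and TKDP1 only in normoxia vehicle replicate 3 (29.4). Without the 3 arrays with CSH1 the CYP24 difference was 1.94 (3.84-fold) and did not pass the unadjusted threshold.

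In vehicle fetuses CYP24 was 12.2-fold higher after hypoxia than after normoxia (log2 difference 3.60 ± 1.05, SE), and all 12 pairs of fetuses ran that way. This is the contrast that chose the gene, so it is given without a test. In this comparison 5.03% of all probes had hypoxic values entirely above the normoxic ones, 16.1% passed the unadjusted threshold in either direction, 0.0155% passed after adjustment, and 0.209% had an increase at least that of CYP24. With dim spots raised to the limit of their array the difference was 11.4-fold. Hypoxia vehicle replicate 1 weighed most: without it the difference was 2.70 on the log2 scale, or 6.48-fold. Within slide 1 it was 3.49 and within slide 2 it was 3.30, where the normoxia vehicle group was 1 array. With normexp background correction it was 1.43 (2.69-fold), and in the deposited table it was 2.07 (4.20-fold).

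The remaining contrasts share arrays with the vehicle comparison and are likewise descriptions. CYP24 was 0.460 times as high in hypoxia ketamine as in hypoxia vehicle fetuses (log2 difference -1.12 ± 0.97, SE), and the ketamine fetus was the higher one in 4 of 16 pairs. Without hypoxia vehicle replicate 1 this difference was -0.21. Normoxia ketamine fetuses stood 1.23-fold above normoxia vehicle fetuses (0.30 ± 1.05), with 8 of 12 pairs in that direction. This sign turned with normexp background correction (-0.13), within slide 2 (-0.88), without normoxia ketamine replicate 1 (-0.08), without normoxia vehicle replicate 2 (-0.03) and without the placental lactogen arrays (-0.03). The hypoxia change in ketamine fetuses minus that in vehicle fetuses was -1.42 ± 1.43. It was -0.51 without hypoxia vehicle replicate 1 and -0.29 with normexp background correction.

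Beside CYP24, 63 other genes of vitamin D and mineral handling were looked up by name, and 14 had a named probe. Of these 13 were tested, and TNFSF11 (RANKL), the cytokine that drives osteoclast formation, was well above background on no array. The 13 cover calcium and phosphate transport, hormones and their receptors, bone matrix proteins and transcription factors. At the unadjusted threshold 0 rose and 1 fell with hypoxia in ketamine fetuses, where 8.65% of all probes were called, 3.68% higher and 4.97% lower. In vehicle fetuses 2 rose and 2 fell, against 5.76% of all probes higher and 10.4% lower. Between hypoxia ketamine and hypoxia vehicle fetuses 0 were called (all probes, 6.05%), and 782 probes in all passed the unadjusted threshold. Between normoxia ketamine and normoxia vehicle fetuses 1 fell (all probes, 2.7% in either direction and 1.75% lower). The hypoxia change differed between ketamine and vehicle fetuses for 1 gene (all probes, 3.13%). After adjustment 0 of the 13 passed in limma in any of the 5 comparisons. The median log2 change of the 13 was 0.07 for hypoxia in ketamine fetuses and -0.16 for hypoxia in vehicle fetuses, beside -0.02 and -0.05 over all probes.

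**Figure D2:**
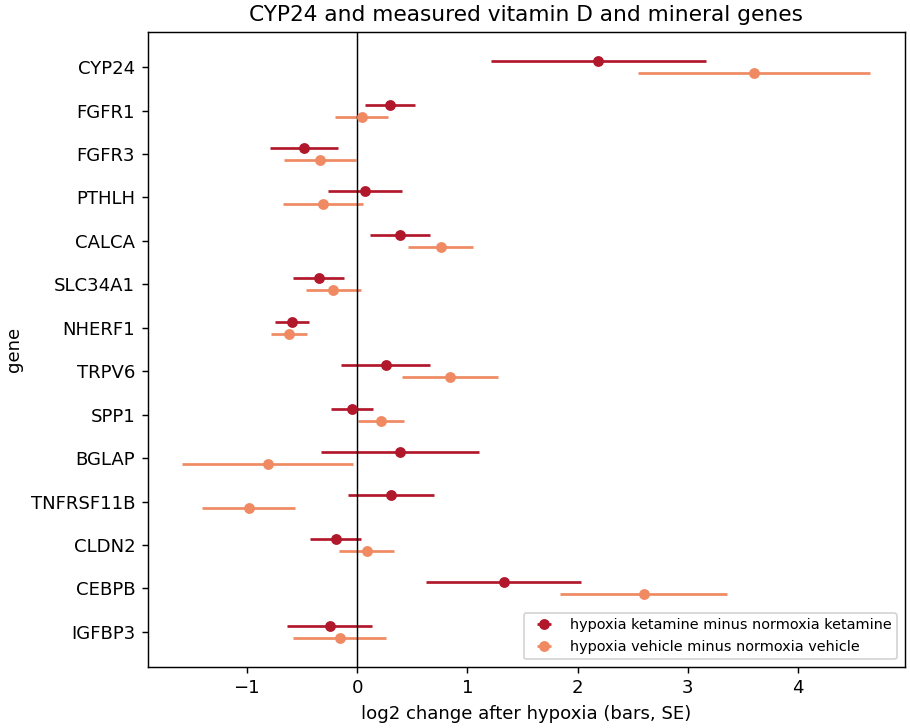
Log2 change after hypoxia (x axis, bars are SE) of CYP24 and 13 other vitamin D and mineral genes in ketamine and in vehicle fetuses. CYP24 has the highest point in both, 2.19 and 3.60, CEBPB follows at 1.33 and 2.60, and NHERF1 is below 0 in both at -0.59 and -0.62.

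Among transport genes, SLC34A1, the brush-border sodium-phosphate cotransporter of the proximal tubule, was well above background on all 15 arrays, which fits the labelled tissue. Its log2 change with hypoxia was -0.35 ± 0.23 in ketamine fetuses and -0.21 ± 0.25 in vehicle fetuses (adjusted p = 0.751 and adjusted p = 0.702). NHERF1, the scaffold that holds SLC34A1 in the apical membrane, read 738, 1094, 1108 and 917 in hypoxia ketamine fetuses, against 1574, 1268, 1274 and 1317 in normoxia ketamine fetuses. It read 970, 1089, 875 and 888 in hypoxia vehicle fetuses, against 1402, 2011 and 1500 in normoxia vehicle fetuses. Every hypoxic reading lay below every normoxic one within each arm, as for 3.68% of all probes in ketamine and 9.57% in vehicle fetuses. NHERF1 fell at the unadjusted threshold in both arms, by 0.59 ± 0.15 on the log2 scale with ketamine (adjusted p = 0.289) and by 0.62 ± 0.17 with vehicle (adjusted p = 0.165), and its 2 probes ran the same way.

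TRPV6 is an epithelial calcium channel and, in the mouse intestine, a target of the vitamin D receptor. Its signals were 65.5, 184.5, 47.9 and 54.5 in hypoxia ketamine fetuses and 143, 54.6, 66.6 and 194 in hypoxia vehicle fetuses. The 4 normoxia ketamine fetuses lay between 54.3 and 62.6, and the normoxia vehicle fetuses gave 52.4, 74.5 and 60.9. The 3 hypoxic arrays highest in CYP24 were also the 3 highest in TRPV6, as they were for 2.62% of all tested probes. The other hypoxic TRPV6 readings overlapped the normoxic ones. TRPV6 passed no test, at 0.26 ± 0.40 for hypoxia in ketamine fetuses (adjusted p = 0.921) and 0.84 ± 0.43 in vehicle fetuses (adjusted p = 0.350). In ketamine fetuses its sign turned without hypoxia ketamine replicate 2 (-0.13). CLDN2, the cation-permeable claudin of the proximal tubule, differed by -0.19 ± 0.23 in ketamine fetuses and 0.09 ± 0.25 in vehicle fetuses, and passed no test.

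Among hormones and receptors, CALCA, the gene of calcitonin and of calcitonin gene-related peptide, read 93.3, 75.3, 79.8 and 148 in hypoxia vehicle fetuses. In normoxia vehicle fetuses it read 57.2, 64.5 and 66.2. The groups did not overlap, as for 5.03% of all probes in this direction. CALCA rose by 0.76 ± 0.30 on the log2 scale at the unadjusted threshold (adjusted p = 0.247). This call was lost with normexp (0.26), in the deposited table (0.43), within slide 2 (0.40), and without any 1 of normoxia vehicle replicates 1 (0.71) and 2 (0.71) and hypoxia vehicle replicate 4 (0.58). In ketamine fetuses its change was 0.39 ± 0.27 (adjusted p = 0.770), and 0.09 without hypoxia ketamine replicate 2, whose CALCA signal of 175 was the highest of all arrays. TNFRSF11B (osteoprotegerin), the decoy receptor of RANKL, read 39.6, 16.7, 51.1 and 70.7 in hypoxia vehicle fetuses and 27.0, 30.9, 30.3 and 71.7 in normoxia ketamine fetuses, against 69.0, 100.5 and 92.2 in normoxia vehicle fetuses. One fetus of each of the first 2 groups overlapped the normoxia vehicle range. TNFRSF11B fell by 0.98 ± 0.42 with hypoxia in vehicle fetuses and by 1.14 ± 0.42 with ketamine in normoxic fetuses, both at the unadjusted threshold (adjusted p = 0.275 and adjusted p = 1). The comparisons share the normoxia vehicle arrays. Without hypoxia vehicle replicate 2 the hypoxia difference was -0.61 and was not called, nor was it without normoxia vehicle replicates 2 (-0.95) or 3 (-0.87). Neither call held with normexp (-0.53 and -0.59) or within slide 1 (-1.06 and -1.37). The ketamine call was also lost in the deposited table (-0.59) and without normoxia vehicle replicate 3 (-1.03). It was lost too without normoxia ketamine replicate 1 (-0.95) and without the placental lactogen arrays (-0.81). FGFR1 and FGFR3, receptors through which FGF23 can signal, and PTHLH, parathyroid hormone-related protein, passed no test in any of the 5 comparisons.

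CEBPB, a transcription factor of cytokine and acute-phase responses, had the largest change of the 13. It read 189, 517, 59.8 and 79.5 in hypoxia ketamine fetuses and 712, 86.0, 231.5 and 1046 in hypoxia vehicle fetuses. The 4 normoxia ketamine fetuses gave 51.7, 52.9, 51.7 and 65.5, and the normoxia vehicle fetuses 49.7, 94.3 and 55.5. CEBPB rose by 2.60 ± 0.76 on the log2 scale with hypoxia in vehicle fetuses at the unadjusted threshold (adjusted p = 0.172), although hypoxia vehicle replicate 2 read below normoxia vehicle replicate 2 in raw signal. In ketamine fetuses the CEBPB difference was 1.33 ± 0.70 and was not called (adjusted p = 0.650). It passed the unadjusted threshold with normexp (1.18) and with only the groups compared (1.33). It also passed without hypoxia ketamine replicate 3 (1.76) and without hypoxia vehicle replicate 2 (1.33). The bone matrix genes SPP1 (osteopontin) and BGLAP (osteocalcin) and the growth factor binding protein IGFBP3 passed no test in any comparison.

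Other cytochrome P450 genes served as a family comparison, picked by their names on the array. Of 8, the steroid-synthesis genes CYP11A1, CYP11B1 and CYP19 and the xenobiotic gene CYP1A1 were well above background on no array. Of the 4 tested, 0 rose and 1 fell with hypoxia in ketamine fetuses (all probes, 8.65%), and 0 were called in vehicle fetuses (all probes, 16.1%). CYP4F21, of a family that hydroxylates fatty acids and eicosanoids, read 27.1, 41.6, 26.6 and 25.7 in hypoxia ketamine fetuses, against 42.6, 198, 88.3 and 44.7 in normoxia ketamine fetuses. It fell by 1.44 ± 0.50 on the log2 scale at the unadjusted threshold (adjusted p = 0.427), opposite in sign to CYP24 in the same fetuses. In vehicle fetuses its change was 0.37 ± 0.54 (adjusted p = 0.764). With normexp the difference in ketamine fetuses was -0.35 and was not called, nor was it within slide 1 (-1.59).

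The genes whose pattern over the arrays was most like that of CYP24 were ranked by Pearson correlation of the scaled log2 signal among 831 named genes. All points share the 15 arrays, the scaling and the group differences, so the coefficients describe likeness only. The median coefficient was 0.04. The 10 highest were IL6 (0.89), SLC2A3 (0.88), NFKBIA (0.88), CEBPB (0.88), CXCL8 (0.86), RCAN1 (0.86), JUNB (0.86), IL1B (0.86), SELP (0.86) and AREG (0.85). IL6, CXCL8 and IL1B are cytokines, SELP is an adhesion molecule of activated endothelium and platelets, and NFKBIA is the inhibitor of NF-kappaB that NF-kappaB induces. JUNB is a subunit of the AP-1 transcription factor, SLC2A3 is the glucose transporter GLUT3, AREG is a ligand of the EGF receptor and RCAN1 inhibits calcineurin. Over all tested probes 141 had a coefficient above 0.8, and 18 lay above IL6. The ranking of named genes used 1 probe per gene, so these 18 can include further probes of named genes.

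**Figure D3:**
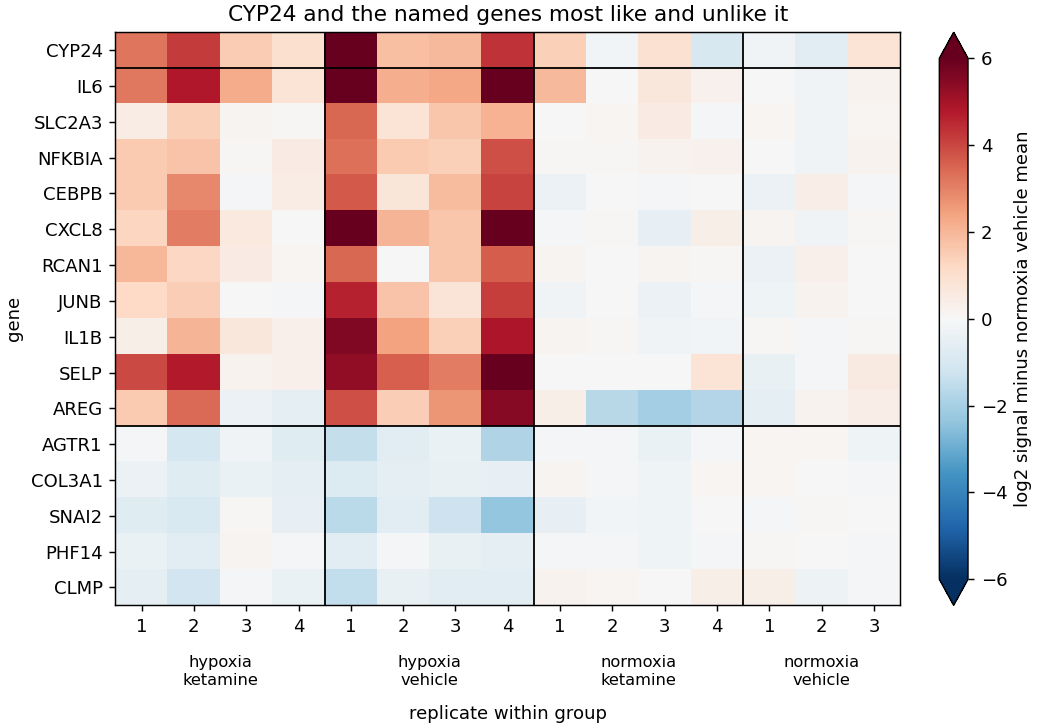
Log2 signal minus the mean of the normoxia vehicle arrays (colour, red higher and blue lower) for CYP24 (top row), the 10 named genes most like it and the 5 least like it (bottom rows), with 1 column per array. Hypoxia vehicle replicates 1 and 4 and hypoxia ketamine replicate 2 have the highest values in CYP24, as they do in IL6 and CEBPB. The other hypoxic arrays also lie above the normoxia vehicle mean in CYP24, hypoxia ketamine replicate 1 the most.

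IL6 read 23.9, 82.3, 12.5 and 4.39 in hypoxia ketamine fetuses and 2632, 9.96, 12.7 and 10067 in hypoxia vehicle fetuses. The normoxia ketamine fetuses gave 10.5, 2.20, 3.85 and 3.26, and the normoxia vehicle fetuses 2.59, 2.58 and 2.89. IL6 was well above background in 3 of 4 hypoxia ketamine, 2 of 4 hypoxia vehicle, 0 of 4 normoxia ketamine and 0 of 3 normoxia vehicle fetuses, so its order among the dim arrays is not measured. For 6 of the 10 genes (IL6, NFKBIA, CEBPB, CXCL8, SELP and AREG) the 3 highest arrays were the same 3 as for CYP24. This was true of 2.62% of all tested probes (339 of 12924), and of CALCA, TRPV6 and CEBPB in the vitamin D and mineral list. The 10 genes were picked for their correlation with CYP24 over these same arrays. Sharing its highest arrays follows in part from that choice and is no separate evidence of likeness.

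**Figure D4:**
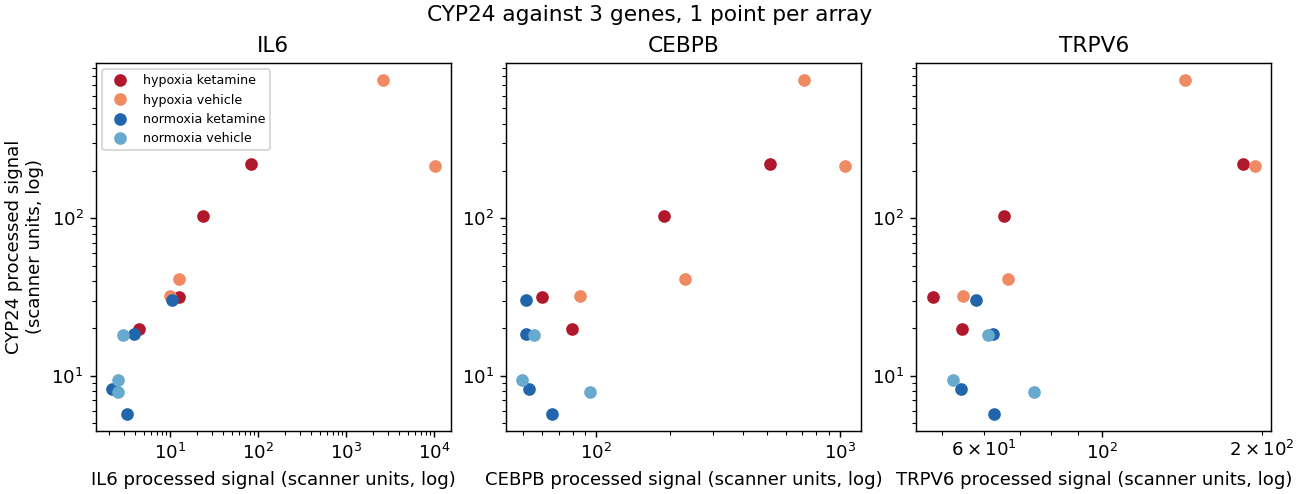
CYP24 processed signal (y axis) against that of IL6, CEBPB and TRPV6 (x axes), all in scanner units on log axes, with 1 point per array coloured by group. The 3 highest CYP24 arrays, 2 of hypoxia vehicle and 1 of hypoxia ketamine fetuses, are also the 3 highest in each panel.

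The named genes were also ranked by deviations from the group means, which leave out the differences between groups. The median coefficient was then 0.06. The 5 highest, picked on this same measure, were those of SLC2A3 (0.86), HK1 (0.84), JUNB (0.81), IL6 (0.81) and IL1B (0.81). HK1 ranked 31 over the 15 arrays and was not among the 10. The coefficients of the 10 ran from 0.67 for SELP, ranked 39 on this measure, to 0.86 for SLC2A3. HK1 is hexokinase 1, the first enzyme of glycolysis. SLC2A3 read 7098, 15326, 5827 and 5097 in hypoxia ketamine fetuses and 48694, 7621, 16140 and 21658 in hypoxia vehicle fetuses, against 4761 to 6488 in normoxia ketamine and 5031 to 5574 in normoxia vehicle fetuses. Hypoxia vehicle replicate 1, highest in CYP24, was also highest in SLC2A3. The membership of the 10 depended on that array: without it 3 of the 10 remained, and by rank correlation 4 of the 10 did. The coefficient of IL6 was 0.83 without it and that of SLC2A3 0.80.

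The 5 lowest coefficients were those of CLMP (-0.88), an adhesion molecule of cell junctions, PHF14 (-0.83), a chromatin-binding protein, SNAI2 (-0.82), a repressor of epithelial genes, COL3A1 (-0.81), a fibrillar collagen, and AGTR1 (-0.81), the type 1 angiotensin II receptor. CLMP read 65.4, 45.7, 85.4 and 65.3 in hypoxia ketamine fetuses and 28.8, 58.6, 58.2 and 58.2 in hypoxia vehicle fetuses, against 84.5 to 124 in the 7 normoxic fetuses. The lowest CLMP reading belonged to hypoxia vehicle replicate 1.

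Cell markers were summed by array beside these values. The myeloid markers measured (6 of 9) summed to 1470 to 4611 in hypoxia ketamine, 1635 to 4843 in hypoxia vehicle, 1042 to 1245 in normoxia ketamine and 1076 to 1165 in normoxia vehicle fetuses, and their sum had a coefficient of 0.57 with CYP24 over the 15 arrays. The proximal tubule markers (5 of 13) summed to 73239 to 107516, 56429 to 114545, 77249 to 89681 and 71263 to 98802 in the same 4 groups, with a coefficient of 0.06. Of 6 thick limb and distal tubule markers, 0 had a named probe. The 1 neutrophil marker measured of 8 read 1125 to 26362, 597 to 35759, 214 to 817 and 634 to 2580 in the 4 groups, with a coefficient of 0.21. The collecting duct markers (5 of 7) summed to 3679 to 4783, 4223 to 6541, 2903 to 4244 and 2978 to 3941, with a coefficient of 0.35. The coefficient was 0.43 for the 1 erythroid marker measured of 7 and -0.48 for the endothelial markers (3 of 5). The adrenal cortex markers (5 of 7) summed to 215 to 263, 216 to 303, 221 to 292 and 251 to 293. Of these, CYP11A1, CYP11B1 and MC2R were well above background on no array. CYP17A1 was on all 15 by 1 of its 2 probes, and its other probe was on fewer than 3. The part of cell composition in the CYP24 values was not tested.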

How the data were processed

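One-colour Agilent ovine arrays were hybridised with Cy3-labelled cortex RNA (RIN 7.7 to 9.1), 1 per fetus. Per the file headers, the deposited scanner files hold spot intensity, background subtracted within the array by Feature Extraction on a linear scale, with no scaling between arrays. The authors also deposited a log2 value table of 11705 probes, named with limma in the submitters' processing notes. How it was background corrected and scaled is not stated, and it was used for group differences only because most of its columns match another array of their group.

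Here the processed intensity was log2 transformed, the 75th percentile of each array (1064 to 1425) was subtracted, outlier spots were dropped and spots were averaged by probe. Of the probes, 75.7 to 85.2% were well above background per array, from a lowest signal of 6.97 to 18.7. The 12925 probes well above background on at least 3 arrays were fitted in limma 3.58.1 (R 4.3.3), with 1 mean per group, 11 residual and 2.38 prior degrees of freedom, and two-sided tests. The fit was tested on simulated data. The p-values measure the spread between fetuses, and the number of arrays limits the precision.

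Gene names came from the array, a sheep RefSeq table (1376 probes) and a hand table of older symbols (92). The CYP24 probe, the gene lists, the tests and the named-gene rule (CYP24, VDR, CYP27B1, every measured vitamin D and mineral gene, the 10 most and 5 least correlated named genes and the 5 most correlated within groups) were chosen with earlier results of these data known. The other cytochrome P450 genes lie outside that rule. Alternatives were other backgrounds, scalings, filters, the deposited table, slides, blocks and left-out arrays.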

Additional observations from a re-analysis of the deposited data

Results flagged for a closer look

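Groups of 4 arrays were screened with Dixon's test for 1 array far from the others, in 90 groups over 30 genes. There were 7 such cases, each 1 gene in 1 group, where chance gives about 1 in 20 (4.5). The genes share the same arrays, so the 90 groups are not independent. On the log2 scale relative to the 75th percentile, hypoxia ketamine replicate 2 stood apart for CALCA (-2.996, the others -4.34 to -4.14), TNFRSF11B (-5.49, the others -4.55 to -4.39) and CYP4F21 (-5.07, the others -5.58 to -5.52). Hypoxia ketamine replicate 4 stood apart for FGFR1 (-2.99, the others -2.78 to -2.74). In normoxia ketamine fetuses, replicate 4 stood apart for SELP (-4.69, the others -5.54 to -5.50), replicate 1 for AREG (-6.73, the others -9.13 to -8.74, none of the 4 well above background, so that this gap is not a measured difference) and replicate 3 for AGTR1 (1.63, the others 1.90 to 1.94).

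For 2 genes the hypoxia change differed between ketamine and vehicle fetuses at the unadjusted threshold in limma. For TNFRSF11B the change in ketamine fetuses minus that in vehicle fetuses was 1.29, and for CYP4F21 it was -1.81. With normexp background correction neither passed (0.83 for TNFRSF11B and -0.38 for CYP4F21). Leaving out 1 array at a time, TNFRSF11B passed in 5 of 15 fits (0.92 to 1.58) and CYP4F21 in 12 of 15 (-2.16 to -1.30). TNFRSF11B also missed the threshold with quantile scaling (1.28), in the deposited table (0.71) and without the placental lactogen arrays (1.21). Of all probes 3.13% passed in this comparison, and for both the adjusted p = 0.989.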

How the results depend on the processing

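Log2 differences and counts at an unadjusted p of 0.05 were recomputed in each setting. The signs of CYP24 in both hypoxia comparisons held in every setting tried. Leaving out 1 array at a time gave CYP24 1.61 to 2.69 for hypoxia in ketamine fetuses and 2.70 to 4.20 in vehicle fetuses. With normexp background correction these were 1.13 and 1.43, and in the deposited values 1.09 and 2.07. Within slide 1 the first was 1.97, within slide 2 it was 2.41, without the placental lactogen arrays 1.94, and with dim spots at the lowest signal well above background (chosen after seeing the data) 1.96. The cause was not tested. TRPV6 in ketamine fetuses turned sign within slide 2 (-0.22), without the placental lactogen arrays (-0.20) and without hypoxia ketamine replicate 2 (-0.13), the lowest of a leave-one-out range that reached 0.47.

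Counts of the 13 listed genes were 1, 4, 0, 1 and 1 in ketamine hypoxia, vehicle hypoxia, hypoxia ketamine against hypoxia vehicle, normoxia ketamine against normoxia vehicle, and the difference of the hypoxia changes. They became 3, 2, 0, 0 and 0 with normexp. Quantile scaling gave 0 for the difference of the hypoxia changes, and the deposited table gave 0 for that and for normoxia ketamine against normoxia vehicle. Within slide 1 the last 4 counts were 1, 1, 0 and 0, and within slide 2 all 5 were 0, 1, 1, 0 and 0. With only the groups compared, ketamine hypoxia and normoxia ketamine against normoxia vehicle gave 2 each. Without the placental lactogen arrays the last 3 were 3, 0 and 0. Leaving out 1 array gave 1 to 3, 2 to 5, 0 to 3, 0 to 2 and 0 to 2.

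Over all probes the 5 counts were 1118, 2083, 782, 349 and 405. With normexp the last 4 were 1255, 400, 116 and 198. Within slide 1 ketamine hypoxia gave 604, vehicle hypoxia 1196, hypoxia ketamine against hypoxia vehicle 276 and the difference of the hypoxia changes 226, and within slide 2 vehicle hypoxia gave 665. With only the groups compared the 2 ketamine comparisons gave 430 and 671. Without the placental lactogen arrays hypoxia ketamine against hypoxia vehicle gave 1454 and the difference of the hypoxia changes 711. Leaving out 1 array gave 833 to 1338, 1306 to 2453, 482 to 1598, 220 to 543 and 235 to 984. The share of higher calls in ketamine hypoxia was 42.6% and became 63.1% with normexp, where the median of all probes moved by 0.11. For hypoxia ketamine against hypoxia vehicle it was 42.5%, and 54.0%, 52.7% and 56.8% with normexp, quantile and median scaling. For normoxia ketamine against normoxia vehicle it was 35.2%, and 50.9%, 52.6%, 60.7% and 46.8% with these 3 and the deposited table. Of the 10 genes most like CYP24, rank correlation shared 4 and leaving out 1 array 3 to 10.

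Arrays of the same replicate number had coefficients of -0.29 to 0.37, so the numbers were not read as pairs. With the replicate block CYP24 was 2.19 in ketamine fetuses, still called, and 3.83 in vehicle fetuses. Within a single slide, with fewer arrays, the calls of NHERF1 were lost in slide 1 for vehicle fetuses (-0.56) and in slide 2 for ketamine (-0.58) and vehicle fetuses (-0.68), and that of CEBPB in slide 1 for vehicle fetuses (2.35). Signal near background limits CYP24 on the 5 arrays where it was not well above it.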
